A study of Mus musculus with 96 samples.

Results

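The comparison set mice with a heterozygous knockout of acid alpha-glucosidase (HetKO) against wildtype mice (Wt) in the periportal zone of the liver, after a high-fat diet (HFD). It holds 24 of the 96 areas of illumination (AOIs) of the series, an AOI being the patch of a liver section from which the GeoMx instrument releases and counts barcoded gene probes. The 24 AOIs were taken by diet, zone and genotype in the summary of the regions, 12 for each genotype, and came from 8 of the 16 mice. Each of the 4 HetKO and 4 Wt mice gave 3 periportal AOIs, whose log2 values were averaged, so that the mouse was the replicate. The mice were male, on a background crossed to C57BL/6, about 8 weeks old when the diets began and 15 weeks on the HFD or on a low-fat diet (LFD). By the methods, the HetKO allele carries LoxP sites on either side of a pair of Gaa exons, an insertion that disrupts its transcription in the whole body from birth, and no Cre driver is named. The AOIs were drawn on 5 µm paraffin sections by stains for E-cadherin, which marks periportal cells, and Cyp2e1, which marks perivenous ones. The question was whether the disruption of 1 Gaa allele goes with another gene abundance in periportal liver of obese mice.

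Acid alpha-glucosidase breaks down glycogen inside lysosomes, the last step of the autophagy of glycogen. Hepatocytes next to the portal vein receive blood rich in oxygen and nutrients, and carry much of the liver's fatty acid oxidation, amino acid breakdown, urea synthesis and glucose production. Hepatocytes around the central vein carry more of the glutamine synthesis and of the metabolism of foreign compounds.

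Gaa itself was near background. Its value, scaled so that the third quartile of all targets is 60.2 in every AOI (a Q3-scaled value), was 40.5, 56.3, 43.4 and 30.2 in HetKO mice 1 to 4 and 55.2, 45.7, 55.6 and 39.1 in Wt mice 1 to 4. The groups overlapped, and the log2 difference, HetKO minus Wt, was −0.25 (exact two-sided permutation p = 0.371). Gaa passed the limit of quantitation (LOQ), a floor set above the negative probe, in 3 of 12 HetKO and 2 of 12 Wt AOIs of the HFD. In periportal AOIs of the LFD mice Gaa had 59.03, 51.8, 41.1 and 50.2 in HetKO and 70.96, 67.9, 80.4 and 74.5 in Wt. The genotypes did not overlap there, all HetKO mice being lower, with a log2 difference of −0.53 (adjusted limma p = 0.999 over all genes). Gaa thus followed the genotype labels on the LFD, and on the HFD the labels could not be checked by it. Where the probe lies relative to the LoxP sites is not given in the sources used here. The zone label was checked over the 8 HFD mice. The mean log2 value of 28 periportal markers differed by 1.17 between periportal and perivenous AOIs and that of 22 perivenous markers by −1.65, each the same way in 8 of 8 mice (exact paired permutation p = 0.00781, which is the smallest possible). The perivenous list holds Cyp2e1, whose protein was stained, but Glul, which was not, differed by −3.14 and Cyp2f2, a periportal gene, by 2.66, in 8 of 8 mice each. Cdh1, the gene of E-cadherin, is 1 of the 28 and by itself differed by 0.27, higher periportally in 5 of 8 mice (exact paired permutation p = 0.203).

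The Wt mice were not alike. A median of 430568 deduplicated reads per AOI in HetKO (196322 to 937498) and 356862 in Wt (232808 to 568082) was obtained. The share of targets above the LOQ was 40.7, 34.5, 45.9 and 35.9% in HetKO mice 1 to 4, and 45.2, 16.6, 17.6 and 12.7% in Wt mice 1 to 4. Wt mouse 1 thus resembled the HetKO mice, and Wt mice 2, 3 and 4 lay far below both. The negative probe, whose targets do not exist in the mouse, ran the other way, at 20.7 to 26.04 in HetKO and 21.2, 31.9, 29.3 and 36.6 in Wt. None of 7 such technical measures passed the test between the genotypes (exact permutation p from 0.0571 to 0.257, adjusted p from 0.2 to 0.257, where 4 against 4 mice allow no p below 0.0286). Nuclei per AOI were 209 to 439 in HetKO mice, with mouse 1 the highest, and 198 to 210 in Wt mice. The area of an AOI was 39280 to 46160 µm² in HetKO and 45880 to 53900 µm² in Wt. With the median of the AOIs of each mouse, area had an exact permutation p of 0.0286 and an adjusted p of 0.2. All 24 AOIs lay on 1 scan of the instrument, the unit that the labels name. HetKO AOIs lay on one side of it and Wt AOIs on the other, so genotype and position on the scan cannot be told apart.

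**Figure D1:**
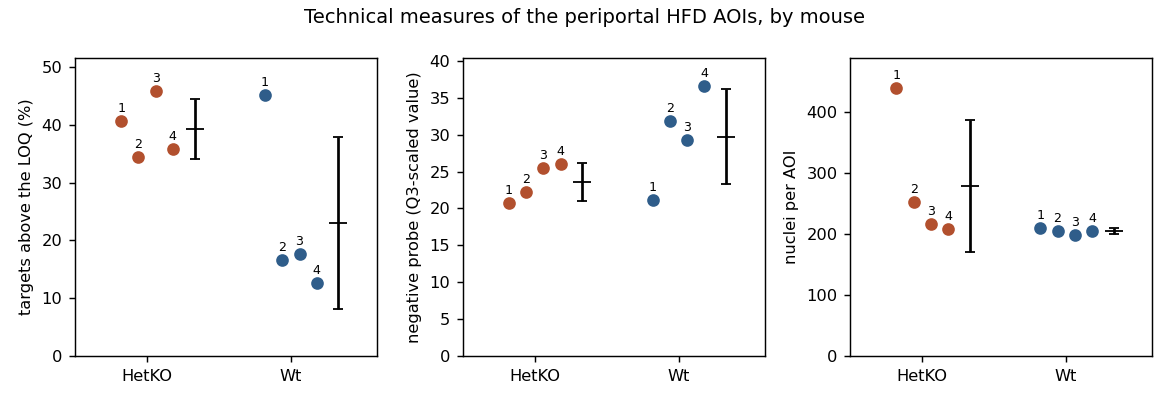
Share of targets above the limit of quantitation, value of the negative probe and nuclei per AOI in the periportal AOIs of each HFD mouse (points, numbered by mouse, mean of 3 AOIs; bars, mean and SD of 4 mice). Wt mouse 1, at 45.2% of targets above the limit, lies among the HetKO mice, while Wt mice 2 to 4 lie at 12.7 to 17.6%.

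In limma no gene passed the thresholds of the study's methods, which pair an adjusted p under 0.05 with a fold change past 0.80 on the log2 scale, up or down: 0 of 6805 genes (0%), with a smallest adjusted p of 0.141. The study itself applied them with DESeq2 to values it describes as corrected for nuclei, and reports a few genes in this comparison. At an unadjusted limma p under 0.05, 612 genes (8.99%) were higher and 361 (5.30%) lower in HetKO. All 4 HetKO mice lay above all 4 Wt mice in 154 genes (2.26%) and below them in 146 (2.15%). On recovered reads, edgeR called 0 genes with 825 at an unadjusted p under 0.05, and DESeq2 called 5, all higher in HetKO: Upp2, Etnppl, Sult2a8, Acsl1 and Otc. DESeq2 gave an adjusted p for only 2318 genes, whereas limma and edgeR gave one for all 6805. Below, a gene counts as higher or lower at an unadjusted p under 0.05, and none of these single genes passed the adjusted threshold in limma with all 8 mice.

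Upp2, uridine phosphorylase of the liver, which cleaves uridine to uracil, was 2.11-fold more abundant in HetKO. Its value was 97.1, 136, 102 and 98.8 in HetKO mice 1 to 4 and 60.1, 63.8, 33.9 and 53.4 in Wt mice 1 to 4. The lowest HetKO mouse lay well above the highest Wt mouse, and Wt mouse 1 lay with its own group. All 12 HetKO AOIs but 2 of 12 Wt AOIs were above the LOQ. The log2 fold change was 1.07 with a standard error (SE) of 0.22 and an adjusted limma p of 0.150.

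Sult2a8, a sulfotransferase of mouse liver that sulfates bile acids, was 2.29-fold more abundant. Values were 134, 106, 124 and 185 in HetKO mice 1 to 4, against 40.1, 85.03, 44.8 and 74.4 in Wt. Again no mouse overlapped, and Wt mouse 1 was the lowest of all 8. The log2 fold change was 1.20 (SE 0.25, adjusted limma p = 0.156). It is the only gene of the 5 from DESeq2 that was also called with the share of targets above the LOQ as a covariate (1.56), and its adjusted p ran from 0.00011 to 1.00 over 24 alternatives. The covariate is itself counted from the same target values, so it is not independent of them. Probes of the closely related members of its family could share signal with Sult2a8, which was not tested.

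Upp2 and Sult2a8 are shown by the stretch before 1 of their starts because both windows held the same pair of short motifs. Both are 250 bases that end just before a RefSeq start (build GRCm38.p6), 5′ to 3′ in the direction of the gene. Capitals mark AGGTCA, the core site of many nuclear receptors, and TATAAA, the TATA box.
Upp2, chr2:58754934-58755183, + strand: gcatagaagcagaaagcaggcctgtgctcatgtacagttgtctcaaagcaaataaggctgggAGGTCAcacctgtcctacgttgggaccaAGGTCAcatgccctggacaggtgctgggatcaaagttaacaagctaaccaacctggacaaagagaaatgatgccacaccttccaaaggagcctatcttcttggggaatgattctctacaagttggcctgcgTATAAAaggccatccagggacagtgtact
Sult2a8, chr7:14438552-14438801, − strand: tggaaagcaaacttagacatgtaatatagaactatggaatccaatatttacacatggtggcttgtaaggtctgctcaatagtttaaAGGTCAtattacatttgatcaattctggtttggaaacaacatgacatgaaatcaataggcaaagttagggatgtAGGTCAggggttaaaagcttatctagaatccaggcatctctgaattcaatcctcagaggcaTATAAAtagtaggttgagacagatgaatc
In the Upp2 window AGGTCA began 188 and 160 bases before the start, and in the Sult2a8 window 164 and 90 bases before it. TATAAA began 29 bases before the start in both. Of 32851 RefSeq starts, 14.02% held AGGTCA and 12.4% TATAAA on either strand of such a window. A further start of Upp2 held none of the 8 motifs searched, a further start of Sult2a8 held only TATAAA on the opposite strand, and neither pair of starts of Etnppl and Acsl1 held any (the others searched on both strands were the E box CACGTG, the D box as TTATGTAA or as TTACGTAA, the glucocorticoid site AGAACA, the HNF4A site CAAAGTCCA and the C/EBP site TTGCGCAA). A match describes the letters only.

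Etnppl, the lyase that breaks down phosphoethanolamine, was 2.09-fold more abundant. Its value was 62.1, 144, 121 and 109 in HetKO mice and 51.4, 58.4, 37.2 and 56.2 in Wt mice. HetKO mouse 1 exceeded the highest Wt mouse by a small margin, and the other HetKO mice lay clearly above. The log2 fold change was 1.06 (SE 0.23, adjusted limma p = 0.176).

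For Acsl1, which activates long-chain fatty acids to their CoA esters, the values were 132, 158, 108 and 132 in HetKO and 99.1, 60.9, 56.4 and 59.2 in Wt. The groups did not overlap, but Wt mouse 1 lay closer to the HetKO mice than to the rest of its group. The log2 fold change was 0.97 (SE 0.23, adjusted limma p = 0.243) against all 4 Wt mice and 0.40 against Wt mouse 1 alone.

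Otc, the ornithine transcarbamylase of the urea cycle, had 129, 116, 136 and 163 in HetKO mice and 106, 77.7, 59.2 and 63.99 in Wt mice. Its log2 fold change was 0.84 (SE 0.23, adjusted limma p = 0.243), or 0.32 against Wt mouse 1. Serpina6, the plasma carrier of glucocorticoids, had 84.2, 76.8, 90.3 and 39.96 in HetKO and 41.8, 45.6, 31.3 and 30.6 in Wt, with a log2 fold change of 0.92 (SE 0.21, adjusted limma p = 0.243). HetKO mouse 4 fell within the Wt range for Serpina6, and without that mouse Serpina6 was called in limma together with Nr1i3.

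**Figure D2:**
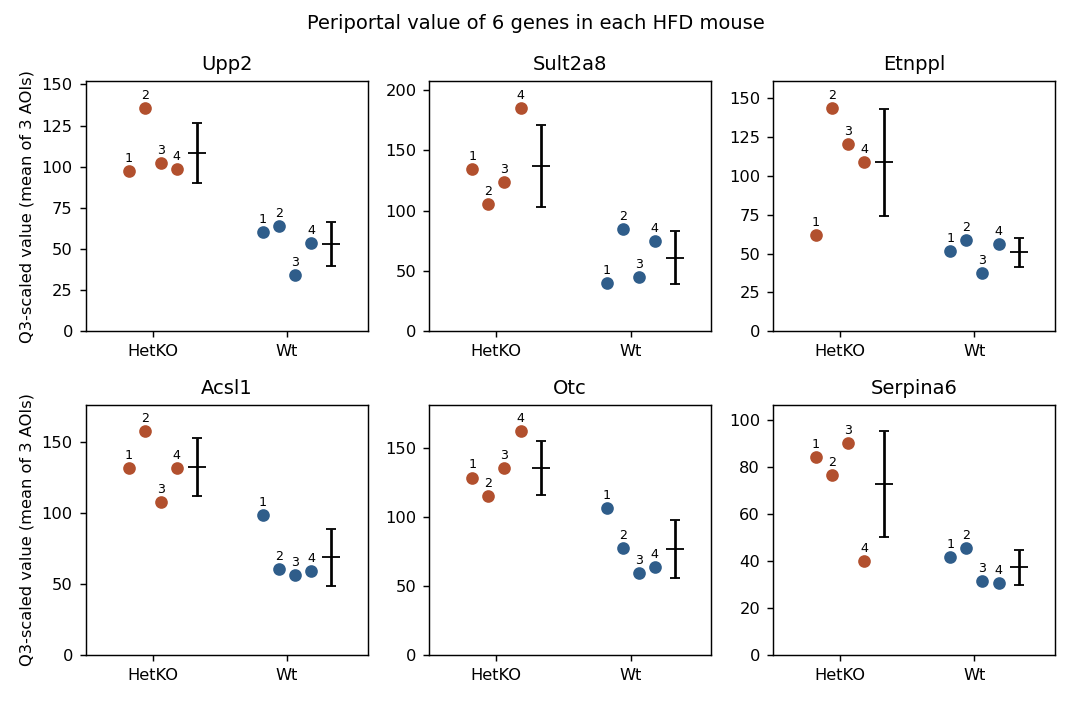
Q3-scaled value of Upp2, Sult2a8, Etnppl, Acsl1, Otc and Serpina6 in the periportal zone of each HFD mouse (points, numbered by mouse, mean of 3 AOIs; bars, mean and SD of 4 mice). HetKO mice lie above all Wt mice for the first 5 genes, and for Acsl1 and Otc Wt mouse 1 is the nearest to them.

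Of the other genes with the smallest p among those whose mice did not overlap, Nr1i3, the constitutive androstane receptor that senses foreign compounds, had the smallest adjusted p (0.141). Its value was 65.8, 62.6, 58.9 and 36.7 in HetKO and 30.1, 36.1, 23.02 and 25.2 in Wt, and the log2 fold change was 0.96 (SE 0.18). It was above the LOQ in 7 of 12 HetKO and 0 of 12 Wt AOIs, so the Wt level is close to background.

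Cyp4a10, which hydroxylates the end of fatty acid chains, had 96.01, 95.6, 107 and 66.5 in HetKO and 60.2, 51.5, 41.02 and 20.1 in Wt (log2 fold change 1.19, SE 0.24, adjusted limma p = 0.150). Near-identical Cyp4a genes may share its probe signal. Asl, the argininosuccinate lyase of the urea cycle, had 180, 267, 260 and 231 in HetKO and 171, 117, 82.8 and 97.8 in Wt (1.04, SE 0.28, adjusted limma p = 0.243). Wt mouse 1 was again close to the HetKO mice for Asl but not for Cyp4a10.

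Sucla2, a subunit of succinyl-CoA synthetase in the TCA cycle, ranged from 75.7 to 77.9 in HetKO and from 39.6 to 60.9 in Wt. Gch1, the first enzyme of tetrahydrobiopterin synthesis, ranged from 82.3 to 103 in HetKO and from 41.6 to 75.8 in Wt. Slc22a28, a transporter of the organic anion family, ranged from 73.8 to 82.3 against 39.6 to 54.8. The log2 fold changes were 0.67 for Sucla2, 0.77 for Gch1 and 0.70 for Slc22a28, and Hnrnpk, an RNA-binding protein, and N4bp2l1 came to 0.81 and 0.80. All 5 had an adjusted limma p of 0.243.

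Of the 12 genes lower in HetKO with the smallest p and no overlap of mice, 10 were above the LOQ in at most 5 of the 12 AOIs of either genotype, and the negative probe itself had a log2 difference of −0.31, HetKO minus Wt. Cxcl1, a chemokine that attracts neutrophils, had 35.9, 33.9, 30.8 and 29.4 in HetKO and 48.2, 44.6, 74.3 and 45.1 in Wt, with a log2 fold change of −0.66 (SE 0.17, adjusted limma p = 0.243). It was above the LOQ in 1 HetKO and 4 Wt AOIs, and without Wt mouse 3 its log2 fold change was −0.48.

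Sh3bp5l, with a log2 fold change of −0.65, Zdhhc24, a palmitoyltransferase, with −0.58, Siae, a sialic acid esterase, with −0.59, Dpep2, a dipeptidase, with −0.58, and Lztfl1, a regulator of ciliary transport, with −0.62, lay between 21.6 and 69.3 in all 8 mice. Cyp3a41a, a P450 enzyme of mouse liver with near-identical relatives, had a log2 fold change of −0.58 and was above the LOQ in 3 HetKO and 4 Wt AOIs. Better detected were Gm10058 (−0.73, above the LOQ in 4 HetKO and 11 Wt AOIs) and Zfp975 (−0.66, in 7 and 12). All had an adjusted limma p of 0.243.

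On the Q3-scaled values the difference went with the level of the gene. Genes were put into 10 level classes of equal size by their mean Q3-scaled value, which is not a value per length. In class 1, the lowest, the median log2 fold change was −0.06, in class 9 it was 0.23 and in class 10 it was 0.55. In class 10 294 of 681 genes (43.2%) were higher in HetKO and 14 lower, and 625 had a positive log2 fold change. Measured against the mean of the HetKO mice, the median log2 value of these genes was 0.14 higher in Wt mouse 1 and differed by −0.72, −0.55 and −1.05 in Wt mice 2, 3 and 4. Wt mice 2 to 4 are also the mice with few targets above the LOQ, and with that share as a covariate the median of class 10 was 0.05. The share is counted from the same target values and goes in part with genotype. A median nearer 0 with it therefore cannot tell the share from genotype. With the negative probe subtracted and the values rescaled, the median was 0.65 in class 1, 0.14 in class 7 and 0.58 in class 10, where that of all genes was 0.38, so the rise with level did not hold over the lower classes. Without Wt mouse 1, limma called 403 genes (5.92%), 385 of them higher in HetKO and 322 in class 10. Against Wt mouse 1 alone, whose spread was taken to be that of the HetKO mice, it called 2, Sult2a8 and Lcn2, for which Wt mouse 1 was the lowest and the highest of the 8 mice, and the median log2 fold change of class 10 was −0.14.

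**Figure D3:**
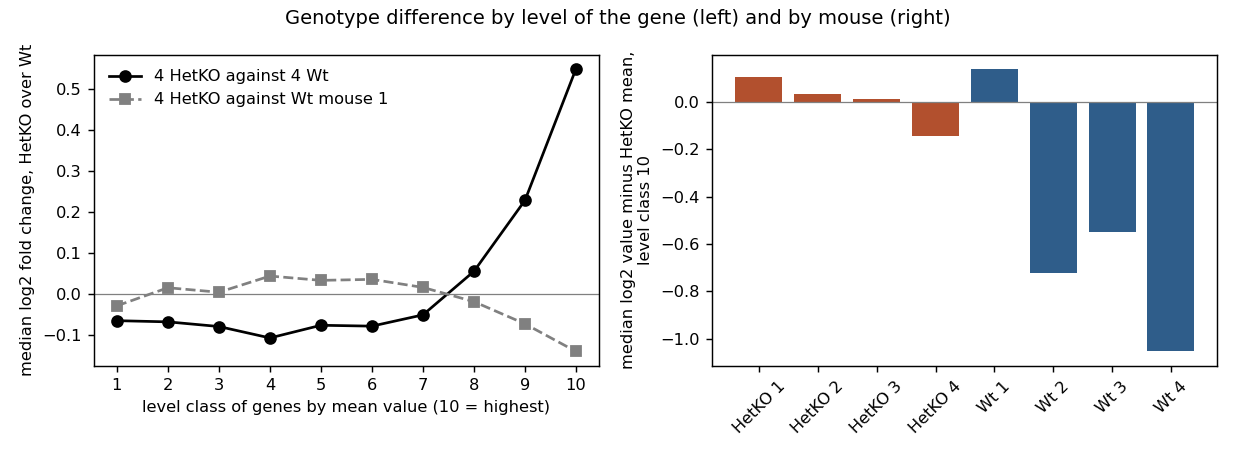
Left, median log2 fold change of HetKO over Wt in 10 level classes of genes ordered by mean value, with all 4 Wt mice (circles) and with Wt mouse 1 alone (squares); right, median log2 value of class 10 in each mouse minus the mean of the HetKO mice. Class 10 stands at 0.55 with all Wt mice and at −0.14 with Wt mouse 1 alone.

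Lists of liver genes followed the same pattern. Of 36 lists with at least 5 members tested, 34 had more members higher than lower and 34 had a median log2 fold change above that of all genes (−0.01), with list medians from −0.02 to 0.71. Against Wt mouse 1 alone 24 of the 36 medians were below 0, with a range from −0.50 to 0.31. A list of 14 abundant housekeeping genes, which none of the study's questions concerns, had a median of 0.55 with 4 members higher, among them Gapdh and Actb, and came to −0.29 against Wt mouse 1. The medians of metabolic lists given next are to be read beside this one. Their counts are to be read beside 8.99% of all genes higher and 5.30% lower, and 43.2% higher in level class 10.

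**Figure D4:**
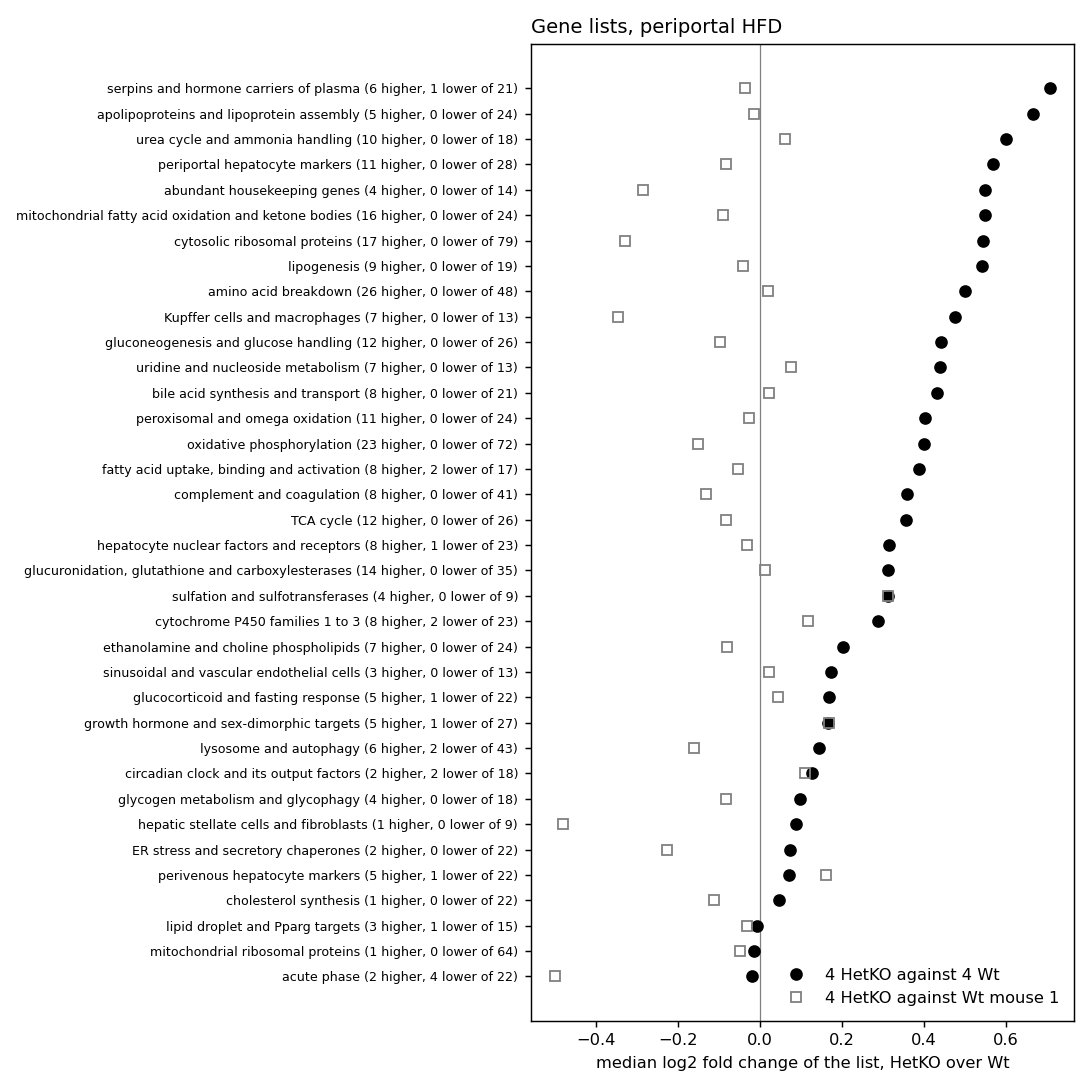
Median log2 fold change of HetKO over Wt for each gene list with at least 5 members tested, with all 4 Wt mice (filled circles) and with Wt mouse 1 alone (open squares); names give the members higher and lower at an unadjusted limma p under 0.05. With all Wt mice 34 of 36 medians lie above that of all genes, and with Wt mouse 1 alone 24 lie below 0.

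Urea cycle and ammonia handling had 10 of 18 members higher and 0 lower, with a median log2 fold change of 0.60. Of these 18 members, 9 lie in level class 10. Cps1, which makes carbamoyl phosphate from ammonia, had 401, 459, 597 and 561 in HetKO and 426, 243, 143 and 170 in Wt (1.16, SE 0.37, adjusted limma p = 0.246). Its Wt mouse 1 lay inside the HetKO range, whereas the other Wt mice lay below. Agmat, which hydrolyses agmatine, ranged from 74.2 to 107 in HetKO and from 50.98 to 69.4 in Wt (0.62, adjusted limma p = 0.243). Slc10a1, the bile acid uptake carrier of the sinusoid, belongs to the list of bile acid synthesis and transport, where 8 of 21 were higher (median 0.43), and ranged from 153 to 202 against 72.1 to 134.

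Amino acid breakdown had 26 of 48 members higher and 0 lower (median 0.50). Hgd, Hpd and Fah, enzymes of tyrosine breakdown, had log2 fold changes of 1.01, 1.07 and 0.89, of which only Hpd had no overlap, with 260 to 367 in HetKO and 105 to 250 in Wt. Aldh6a1, which serves valine breakdown, had 0.62 and Ftcd, which serves histidine breakdown, 1.01. For Ftcd the value of Wt mouse 1 (295) again stood among the HetKO values (253 to 313) and apart from the other Wt mice (91.2 to 119).

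In mitochondrial fatty acid oxidation and ketone bodies 16 of 24 members were higher, 0 lower and 24 positive, with a median of 0.55. Hadha, of the trifunctional protein, and Acadvl, of the first oxidation step, had 0.82 and 0.68. Hadha had 112, 106, 118 and 122 in HetKO and 124, 56.8, 55.5 and 46.5 in Wt, so that Wt mouse 1 was the highest of all 8. Against Wt mouse 1 alone Hadha and Acadvl had −0.13 and 0.17.

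Peroxisomal and omega oxidation had 11 of 24 higher and 0 lower (median 0.40). Phyh, which starts the breakdown of phytanic acid, had 484, 545, 481 and 583 in HetKO and 469, 194, 189 and 145 in Wt (1.22, SE 0.37, adjusted limma p = 0.243). Abcd3, a peroxisomal fatty acid carrier, and Hacl1, a lyase of the same pathway as Phyh, had 0.82 and 0.56. Hacl1 kept 0.60 against Wt mouse 1, while Phyh came to 0.15.

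Fatty acid uptake, binding and activation, the list of Acsl1, had 8 of 17 higher and 2 lower (median 0.39). Slc27a2, a very long chain acyl-CoA synthetase, had 0.98, and Slc27a4, a relative of it, −0.44 at values of 28.9 to 58.3, above the LOQ in 1 of 24 AOIs. In the list of ethanolamine and choline phospholipids, which holds Etnppl, 7 of 24 were higher and 0 lower (median 0.20), and Gpcpd1, which cleaves glycerophosphocholine, had 0.51. Uridine and nucleoside metabolism, the list of Upp2, had 7 of 13 higher and 0 lower (median 0.44). Its other members included Uox, which oxidises uric acid, with 795 to 909 in HetKO and 211 to 708 in Wt (1.19), and Dpys, which acts downstream of uracil, with 117 to 138 against 50.5 to 116 (0.81). Sulfation had 4 of 9 higher (median 0.31, also 0.31 against Wt mouse 1), with Sult1a1 at 1.07 and Sult1d1 at 0.45.

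Glycogen metabolism and glycophagy, the list closest to the function of Gaa, had 4 of 18 members higher and 0 lower, with a median log2 fold change of 0.10. Gys2, the glycogen synthase of liver, had 64.1, 91.6, 77.5 and 72.7 in HetKO and 71.3, 31.8, 41.1 and 39.03 in Wt (0.83, SE 0.21, adjusted limma p = 0.243). Ugp2, which makes the UDP-glucose for glycogen, ranged from 95.5 to 122 in HetKO and from 59.02 to 87.6 in Wt (0.73). Pygl, the glycogen phosphorylase of liver, had 0.67, and Gabarapl1, which binds cargo to autophagosomes, had 1.00. Against Wt mouse 1 alone Gys2, Ugp2, Pygl and Gabarapl1 had 0.08, 0.28, −0.07 and −0.10.

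Lysosome and autophagy had 6 of 43 higher and 2 lower (median 0.14). Lamp2, a membrane protein of the lysosome, had 0.86. Tpp1, a lysosomal peptidase, had −0.41 without overlap, at 31.6 to 43.7 in HetKO and 44.7 to 56.2 in Wt, but above the LOQ in only 3 of 24 AOIs. So neither the glycogen list nor the lysosome list had a median as high as the housekeeping genes, but 2 of 18 and 9 of 43 of their members lie in level class 10, against 10 of 14 housekeeping genes.

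Glucose handling had 12 of 26 members higher (median 0.44), with Fbp1, of glucose production, at 1.13 and Slc2a2, the glucose carrier, at 0.71. Lipogenesis had 9 of 19 higher (median 0.54), with Srebf1, its transcription factor, at 0.81, Acly at 0.67, Dgat2 at 0.82 and Thrsp at 0.84. In the list of lipid droplets and Pparg targets 3 of 15 were higher and 1 lower (median −0.01). Plin2, which coats lipid droplets, had 276, 262, 210 and 181 in HetKO and 298, 112, 160 and 74.04 in Wt (0.71, adjusted limma p = 0.343), and Plin4 had −0.58 at values of 16.9 to 58.3. Cholesterol synthesis had 1 of 22 higher, which was Ebp (0.48), with a median of 0.04.

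P450 families 1 to 3 had 8 of 23 higher and 2 lower (median 0.29). Cyp2e1, the perivenous stain, was itself higher in HetKO without overlap, at 168, 197, 201 and 163 against 111, 132, 60.1 and 81.1 (0.96, SE 0.26, adjusted limma p = 0.243). It was used to draw the AOIs, so its level is not independent of how they were drawn. Glucuronidation, glutathione and carboxylesterases had 14 of 35 higher (median 0.31), with Ephx2, the soluble epoxide hydrolase, at 255, 332, 275 and 365 in HetKO and 255, 104, 116 and 110 in Wt (1.16). Hepatocyte nuclear factors and receptors had 8 of 23 higher and 1 lower (median 0.31). Prox1, a regulator of hepatocyte identity, ranged from 103 to 121 in HetKO and from 68.8 to 83.9 in Wt (0.61) and kept 0.41 against Wt mouse 1, whereas Nr1h4, the bile acid receptor, came from 0.58 to −0.06.

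Lists of secreted proteins had high medians, and their counts stand beside 8.99% of all genes higher in HetKO. The serpins and hormone carriers had 6 of 21 higher and 1 lower (median 0.71), apolipoproteins 5 of 24 higher (0.66), and complement and coagulation 8 of 41 higher (0.36). Of their members 15 of 21, 16 of 24 and 26 of 41 lie in level class 10, where 43.2% of genes were higher. Against Wt mouse 1 alone these medians were −0.04, −0.01 and −0.13. Igfbp2, which binds insulin-like growth factors, had 41.2, 46.8, 66.7 and 95.3 against 20.8, 43, 37.2 and 46.3 (0.75), and Wt mouse 1 was its lowest value. Growth hormone and sex-dimorphic targets had 5 of 27 higher and 1 lower (median 0.17), with Cish, a feedback inhibitor of that pathway, at −0.48 without overlap and above the LOQ in 7 of 24 AOIs.

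Genes of respiration and protein synthesis were largely positive where their level was high. Oxidative phosphorylation had 23 of 72 higher, 0 lower and 71 positive (median 0.40), the TCA cycle 12 of 26 higher (0.36), and cytosolic ribosomal proteins 17 of 79 higher and 78 positive (0.54), of which 72 belong to level class 10. Against Wt mouse 1 these 3 medians were −0.15, −0.08 and −0.33. Periportal hepatocyte markers had 11 of 28 higher and 0 lower (0.57), and perivenous ones 5 of 22 higher and 1 lower (0.07). Of the periportal markers 18 of 28 lie in level class 10, and of the perivenous ones 4 of 22. Against Wt mouse 1 alone the order was reversed, with medians of −0.08 for periportal and 0.16 for perivenous markers. The glucocorticoid and fasting response had 5 of 22 higher and 1 lower (0.17), and ER stress and secretory chaperones 2 of 22 higher (0.07), the last a share close to the 8.99% of all genes. Mitochondrial ribosomal proteins, of which 0 of 64 tested lie in level class 10, had 1 member higher and a median of −0.01.

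Acute phase genes did not follow the level. The list had 2 of 22 higher and 4 lower, beside 8.99% and 5.30% of all genes. Its median was −0.02, although 14 of the 22 belong to level class 10. Against Wt mouse 1 alone the median was −0.50, and without that mouse it was 0.16. Saa1, a serum amyloid that the liver secretes in inflammation, had 479, 152, 77.8 and 182 in HetKO and 673, 444, 1311 and 161 in Wt (−1.51, SE 0.52, adjusted limma p = 0.249). Saa2, a near-identical gene that may share probe signal with Saa1, had 192, 58.1, 24.2 and 51.3 against 167, 128, 544 and 51.6 (−1.40). Both overlapped widely, with HetKO mouse 1 and Wt mouse 3 the highest of their groups and Wt mouse 4 within the HetKO range.

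Orm2, another acute phase protein, had 55.5, 40.9, 41.1 and 46.3 in HetKO and 96.7, 54.2, 69.1 and 59.8 in Wt (−0.57, SE 0.19, adjusted limma p = 0.248). Lcn2, which binds bacterial siderophores and was picked after its values were seen, had 60.8, 36.6, 31.03 and 33.2 against 194, 43.8, 85.8 and 34.6 (−0.84, SE 0.34, adjusted limma p = 0.297). With the share of targets above the LOQ as a covariate, itself counted from the target values, limma called Lcn2, at −1.83. Hamp, the iron hormone hepcidin, ran the other way, at 238, 152, 433 and 320 in HetKO and 112, 31.3, 221 and 124 in Wt (1.46, SE 0.41, adjusted limma p = 0.243).

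**Figure D5:**
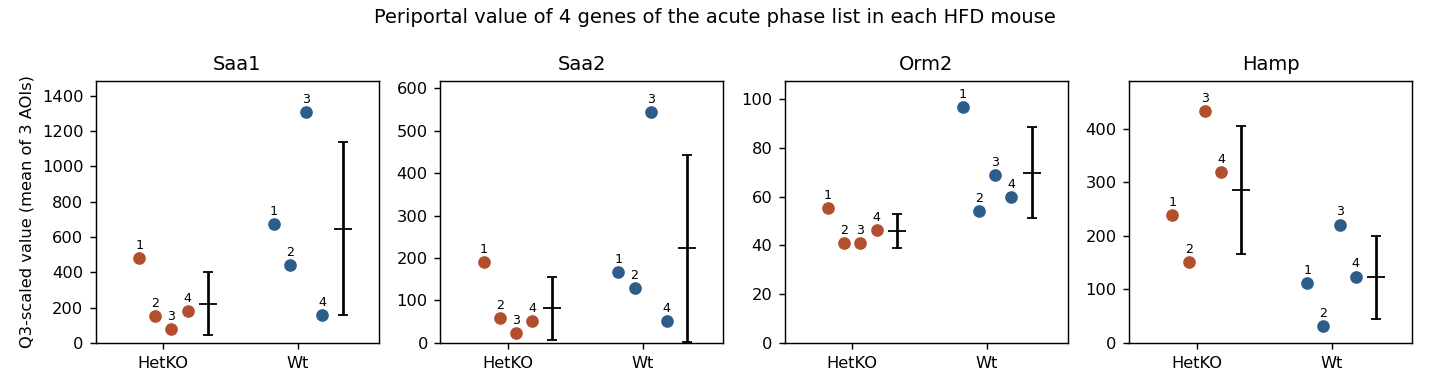
Q3-scaled value of Saa1, Saa2, Orm2 and Hamp in the periportal zone of each HFD mouse (points, numbered by mouse, mean of 3 AOIs; bars, mean and SD of 4 mice). Genotypes overlap for Saa1, Saa2 and Hamp, and for Orm2 the highest HetKO mouse (55.5) lies just above the lowest Wt mouse (54.2).

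Markers of cells other than hepatocytes were weak but not all flat. Kupffer cells and macrophages had 7 of 13 higher and 0 lower (median 0.48), beside 8.99% and 5.30% of all genes. Against Wt mouse 1 alone the median of the list was −0.35. The summed value of the list was 770 to 1178 in HetKO and 576 to 1113 in Wt, with Wt mouse 1 at 1113. Slc40a1, the iron exporter, had 73.4, 73.8, 75.96 and 68.3 in HetKO and 71.8, 28.3, 33.7 and 28.3 in Wt (0.98, SE 0.23, adjusted limma p = 0.243). Clec4f, which marks Kupffer cells of the mouse, had 111, 109, 95.01 and 74.3 against 107, 53.5, 49.7 and 48.1 (0.66). Their part in the other results was not tested, and in such mixed AOIs fewer cells of a type and less RNA per cell cannot be told apart.

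Endothelial cells had 3 of 13 higher (median 0.17; summed value 629 to 761 in HetKO and 562 to 688 in Wt), stellate cells 1 of 9 (0.09; 448 to 626 and 377 to 637), cholangiocytes 0 of 2 and erythrocytes 0 of 3, again beside 8.99% of all genes. Of the neutrophil list 1 of 2 was lower, Ly6g at −0.32 and above the LOQ in 2 of 24 AOIs. Of the markers listed, the data hold 3 of 12 for cholangiocytes, 3 of 10 for erythrocytes, 2 of 11 for neutrophils and 0 of 19 for lymphocytes. The lymphocyte markers could therefore not be analysed. No listed marker that the data hold was at 0 in all of these AOIs. The circadian list had 2 of 18 higher and 2 lower, beside 8.99% and 5.30% of all genes. Dbp, a clock output factor, had 0.71, and Nfil3, its antagonist, had −0.52 but was above the LOQ in 0 of 24 AOIs.

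Among the leading genes, Upp2 and Etnppl had a smaller fold change in the other zone of the same mice, and Sult2a8 and Acsl1 a similar one. No test of the difference between zones passed. Upp2 in perivenous AOIs was 59.1, 59.5, 66.03 and 50.5 in HetKO and 58.5, 51.5, 35.2 and 48.1 in Wt, a log2 fold change of 0.31 against 1.07 periportally. The perivenous values of Etnppl were 30.4, 34.7, 24.02 and 30.5 in HetKO and 23.5, 29.01, 41.4 and 39.7 in Wt, a log2 fold change of −0.13 against 1.06. In these AOIs the negative probe was 23.3, 26.1, 26.1 and 27.6 in HetKO and 20.5, 31.8, 31.3 and 38.9 in Wt. Perivenous Etnppl thus lay near background, which limits its comparison between zones. The perivenous minus the periportal fold change was −0.76 for Upp2 and −1.19 for Etnppl, which did not pass the threshold (adjusted limma p = 0.327 for both). Both genes were among those with the smallest p periportally, and the test between zones uses those same periportal values. A smaller perivenous fold change thus follows in part from how the genes were picked. Sult2a8 had perivenous values of 278, 340, 192 and 395 in HetKO and 216, 120, 146 and 106 in Wt, and Acsl1 had 210, 212, 127 and 195 against 151, 81.3, 73.1 and 65.8. For both Wt mouse 1 lay within the HetKO range, and the log2 fold changes were 1.04 and 1.06 beside 1.20 and 0.97 periportally, with differences between zones of −0.16 and 0.09 (adjusted limma p = 0.976). Across all genes 0 were called in the test between zones, and 398 had an unadjusted p under 0.05. The perivenous comparison itself called 0 genes, and 408 without Wt mouse 1.

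In periportal AOIs of LFD mice, Upp2 was 70.5, 99.2, 85.3 and 182 in HetKO and 102, 133, 64.96 and 187 in Wt. Etnppl was 108, 176, 74.7 and 218 in HetKO and 134, 142, 75.5 and 305 in Wt. The genotypes overlapped on that diet for both genes, with log2 fold changes of −0.15 and −0.13, and Sult2a8 and Acsl1 had −0.07 and −0.15. The difference of the genotype effect between diets was 1.22 for Upp2, 1.27 for Sult2a8, 1.19 for Etnppl and 1.12 for Acsl1. None passed the threshold (adjusted limma p = 0.462 for all 4). These 4 genes were among those with the smallest p on the HFD, and the test uses those same HFD values. A difference from the LFD, where they were not picked, thus follows in part from that choice. Across all genes 0 were called between diets, with 702 at an unadjusted p under 0.05. Saa1 had a log2 fold change of 2.15 on the LFD against −1.51 on the HFD, where the difference between diets had an adjusted limma p of 0.462. Its LFD values were 2209, 176, 5771 and 145 in HetKO and 56.8, 568, 680 and 41.2 in Wt. The genotypes overlapped there too, with HetKO mice 1 and 3 far above the rest (adjusted limma p = 0.999). The diets lay on separate scans, so diet and scan cannot be told apart. The series also holds 2 plates, and the AOIs of each HFD periportal group came from 1 plate.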

How the data were processed

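GeoMx whole transcriptome profiles of liver AOIs were used as deposited. Per the labels, the tags were read with GeoMx NGS Pipeline 2.3.3.10 against mm10. The values the authors deposited are a scaled signal per target and AOI (the third quartile is 60.2 everywhere), whereas the methods name scaling by nuclei. The authors also gave deduplicated read counts and nuclei counts, and sequencing saturation as a percent, per AOI. Of the per-sample columns, 9 were not used. Divided by the scale factor of the negative probe, 99.95% of values were whole within 0.01; these recovered reads served the count tests. Testing covered 6805 genes that exceeded the LOQ in 10 or more of the 96 AOIs and left out 589. Each mouse had the mean of log2(value + 1) of its 3 AOIs, and HetKO was compared with Wt by limma 3.58.1 (trend, two-sided) with Benjamini-Hochberg adjustment over all genes; fold changes are on that scale, which understates low genes. Alternatives used edgeR 4.0.16 and DESeq2 1.42.0 in R 4.3.3. The fits were tested on simulated data. Single measures were compared by exact permutation tests. Genes named are Upp2, Sult2a8, Etnppl, Acsl1, Otc, Serpina6 and Gaa, the 12 higher and 12 lower with the smallest p among genes whose mice did not overlap, and up to 4 members of each of 41 lists. Results of some of these genes are not reported here. Members and lists were chosen with earlier results of these data known. Gene names are those of the files; 6778 tested genes had a RefSeq entry of that symbol. Mouse numbers name mice within a group, and on the HFD they also rose with position along the scan.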

Additional observations from a re-analysis of the deposited data

Results flagged for a closer look

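In groups of 4 mice, a value was singled out where its gap to the nearest mouse exceeded Dixon's 95% limit as a share of the group's range. Of 294 groups of mice tested 20 had such a value, where chance gives about 1 in 20 groups. Wt mouse 1 accounted for 10 of them, and it was the highest Wt mouse in all but Siae. Its values were 99.1 for Acsl1, 255 for Ephx2, 87.6 for Ugp2, 99.6 for Dbp, 142 for Slc2a2, 85.7 for Nr1h4, 205 for Sardh and 107 for Clec4f, 40.5 for Siae, where it was the lowest, and 45.2% for the share of targets above the LOQ. Wt mouse 3 stood apart with 74.3 for Cxcl1. HetKO mouse 1 was high for Gabarapl1 (197) and low for Acsm1 (67.7) and Sardh (160). HetKO mouse 2 was high for Upp2 (136), Fmo5 (294) and Atp5b (337) and low for Slc26a1 (55.6). HetKO mouse 3 was high for Edem1 (112), and HetKO mouse 4 low for Atp5h (103).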

How the results depend on the processing

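Limma called 0 genes with all 8 mice. The count was 142 with AOIs as samples and the mouse as a random block, 5 with DESeq2 on recovered reads, 4 with DESeq2 on rounded means, 2 with the share of targets above the LOQ as a covariate and 2 against Wt mouse 1 alone, and 0 to 403 when each mouse was left out (403 without Wt mouse 1, 2 without HetKO mouse 4). Genes higher and lower, 612 and 361, became 938 higher with AOIs as samples, 172 and 147 against Wt mouse 1 alone, 1325 and 30 with the negative probe subtracted (median of all genes 0.61), 1003 and 126 after rescaling that (median 0.38), 8 and 2 per nucleus, 135 and 120 with the covariate and, among 2018 better detected genes, 505 and 52. Leaving out mice gave 348 (without Wt mouse 3) to 1336 higher and 198 (without Wt mouse 4) to 922 lower, both highest without Wt mouse 1. The labels do not say that mice of the same number pair, but in both genotypes the number rose with position along the scan. Mean coordinates ran from 16040 to 53240 in HetKO mice 1 to 4 and from 23370 to 52490 in Wt mice 1 to 4. The correlations of deviations between mice of the same number were 0.365, −0.10, −0.03 and 0.383, and not every mouse correlated best with its own number. The number as a block, which thus goes with position along the scan, gave 86 calls. Per nucleus, 2 genes were called between diets, 10 perivenously and 3617 on the LFD. Leaving out a mouse gave 0 to 1 calls between zones (Mylk, without HetKO mouse 2), 0 to 185 between diets (185 without Wt HFD mouse 1), 0 to 408 perivenously (408 without Wt mouse 1) and 0 to 1 on the LFD (Angptl8, without Wt LFD mouse 2). Gaa changed sign with the negative probe subtracted (0.0031), and Rps3 (−0.027), Sdha (−0.030) and Plin2 (−0.024) with the covariate. Of 113 genes named only from a list, 40 changed sign against Wt mouse 1 alone. That setting and the rescaling were chosen after seeing the data. The scan as a block was not run, because all 24 AOIs lay on 1 scan. Low signal over background limits Gaa and 10 of the 12 lower genes chosen by p, which were above the LOQ in at most 5 of 12 AOIs of either genotype. The cause of these shifts was not tested.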
